A study of Mus musculus with 5 samples.

Results

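The single-cell comparison described here asked what ABT-317, a JAK1 inhibitor, did to MC38 tumors in mice that had not received checkpoint antibodies. It set barcodes from mice given isotype antibody and ABT-317, labeled Isotype+JAKi, against barcodes from mice given isotype antibody and vehicle, labeled Isotype. With ABT-317, a smaller share of the barcodes fell in CD45+ classes, assigned from RNA (about 12% against 49%). Sorted CD45+ and CD45– cells had been mixed 1:1, so this share is set partly by handling. Genes of myeloid cells, MHC class II genes among them, were lower in the RNA of all barcodes together. Among macrophage-like barcodes no gene passed the test without pairing the reactions, and the changes that passed with pairing were modest. Socs3, 2 of 27 interferon-γ–induced genes (Cxcl9 and Cd274) and 4 of 11 MHC class II genes were lower, where 1.28% of all genes fell. Of 33 type I interferon–stimulated genes 8 were higher and 1 lower, where 1.24% of all genes rose. Among Ptprc-low barcodes 5 of 29 interferon-γ–induced genes and 1 of 17 MHC class I genes fell (1.59% of all genes fell), beside a fall of macrophage markers from 1628 and 1493 CPM to 633 and 812 CPM, and Tfrc, the transferrin receptor, rose, calls that were lost without doublets. In those of their clusters with the least Ptprc, a set chosen after seeing the data, 12 of 28 and 7 of 17 fell (2.63% of all genes), beside a fall of 1 cluster from 41.3% and 45.9% to 19.7% and 20.7% of barcodes, but no gene passed with hashtags centered on their lower modes unless reactions were paired. Tfrc rose in that set as well, with or without doublets but under the same limit. Within single Ptprc-low clusters, doublets kept, it was higher without overlap in 6 of 6 (0.51 to 0.90), as were 0.514% of genes. The Tfrc protein, CD71, was higher over all barcodes, where it moved with the CD45+ share. It passed with pairing among Ptprc-low barcodes (log2 0.40), beside lower myeloid proteins, and among macrophage-like barcodes (0.19). Proteins were not compared without doublets.

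Barcodes were taken from both MC38 reactions if they held at least 200 genes and under 10% mitochondrial UMIs, with no upper limit on genes. In each reaction, the log of 1 plus the count of each of the 4 hashtags in the deposited key was centered on that hashtag's median over all barcodes, and a barcode was given the treatment of its top hashtag where it led the next by at least 1 log unit. Of 65356 MC38 barcodes and 191492 in the series, 57094 passed the filters and 14568 of those belonged to the compared treatments. Isotype had 3333 and 2105 barcodes in reactions 1 and 2, and Isotype+JAKi had 5469 and 3661. The reactions share 1416 barcode sequences, which were kept apart by reaction.

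All groups were male wild-type C57BL/6J mice of 8 to 10 weeks carrying MC38, a transplantable mouse colon carcinoma line, under the skin. Isotype or checkpoint antibodies (CPI, anti–PD-1 with anti-CTLA4) were given on days 3, 6, and 9, and day 12 brought ABT-317 at 20 mg/kg or its DPBS vehicle. Tumors were taken on day 15. The study's single-cell methods count these days from implantation, but its scheme of the MC38 experiment counts them from enrollment at a minimal tumor size. Live CD45+ and CD45– cells were sorted, hashtagged, and mixed 1:1 before loading, so the share of immune cells is set partly by the sort and the mixing. Tumors of several mice per group were taken, per the study's methods. The deposited key gives each hashtag a treatment and names no mouse, so barcodes could not be assigned to mice, and the compared units were the 2 reactions per treatment. P values therefore measure only the spread between reactions, which may be technical, and an exact permutation test of 2 against 2 cannot go below 0.333.

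JAK1 is a kinase bound to cytokine receptors. It pairs with JAK2 at the interferon-γ receptor, with TYK2 at the type I interferon receptor, with JAK2 or TYK2 at receptors that use gp130, such as those for IL-6 and oncostatin M, and with JAK3 at receptors with the common γ chain. The kinases phosphorylate STAT factors, which enter the nucleus and switch on target genes, including SOCS proteins and CISH, which dampen the same receptors. In tumors, interferon-γ is known to raise antigen presentation by MHC molecules, the T cell–attracting chemokines CXCL9 and CXCL10, and the checkpoint ligand PD-L1, encoded by Cd274.

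Which barcodes were compared rests on the hashtag sequences, shown here from the deposited feature lists, 15 bases each, 5′ to 3′, in lower case with no part marked. A treatment had a different hashtag in each reaction, so no antibody is shared between reactions within a treatment.
Isotype, reaction 1, TSCam310: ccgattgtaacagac
Isotype, reaction 2, TSCam301: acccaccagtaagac
Isotype+JAKi, reaction 1, TSCam309: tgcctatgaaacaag
Isotype+JAKi, reaction 2, TSCam308: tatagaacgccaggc

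The Isotype hashtags were the most widespread. They had a median of 144 and 75 counts over all barcodes, against lower modes of 42.1 and 15.7 counts, and 71.96% and 58.8% of barcodes lay in the upper mode. For the Isotype+JAKi hashtags these shares were 40.3% and 21.0%, for CPI 33.9% and 16.6%, and for CPI+JAKi 25.1% and 22.5%. A barcode could thus lie in the upper mode of several hashtags, so an upper mode is not the set of barcodes of a treatment. Many barcodes stayed uncalled: 7255 and 6303 had an Isotype hashtag on top with a lead under 1, against 3994 and 1823 for Isotype+JAKi. Which centering calls treatments better was not tested. Just inside the lead of 1 (to 1.1) were 710 and 517 Isotype and 255 and 87 Isotype+JAKi barcodes, and just outside (from 0.9) 799 and 635, and 309 and 119. The shares and the gene comparisons over all barcodes and within classes were therefore also computed with hashtags centered on their lower modes, while the comparisons within single clusters, of surface proteins, and with checkpoint inhibition were not. This gives 10590 and 9472 Isotype barcodes and 4420 and 2956 Isotype+JAKi barcodes, and the alternative is named below where it changes a count or the call of a gene described.

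The called barcodes held 36231615 and 34753821 gene UMIs for Isotype and 101268494 and 94081296 for Isotype+JAKi. Median UMIs per barcode were 6297 and 13642 for Isotype and 16820 and 24768 for Isotype+JAKi. Clustering at Leiden resolution 1.0 gave 27 clusters, and a cluster was named only where it held markers from lists of 18 cell types. Most CD45– barcodes fell in clusters that matched no list, and these are called unnamed Ptprc-low (Ptprc, which encodes CD45, under 100 counts scaled to library totals, CPM). The epithelial list meant to mark MC38 tumor cells (10 genes, among them Epcam, Krt8, and Krt18) was near 0 in these barcodes, at a summed 0.891, 1.07, 0.960, and 0.886 CPM, with all 10 genes under 1 CPM in every sum. Which of these barcodes are tumor cells thus could not be read from those markers.

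The CD45+ share was lower with ABT-317. A barcode counted as CD45+ by the RNA class of its cluster, not by the sort. Cluster 4, whose leading genes include Cd68 and C1qc, had 34.1 CPM of Ptprc and counted as CD45–. It held 378 and 261 Isotype and 427 and 428 Isotype+JAKi barcodes. CD45+ classes made up 56.4% (exact 95% interval 54.6 to 58.0) and 42.0% (39.8 to 44.1) of Isotype barcodes in reactions 1 and 2, and 11.03% (10.2 to 11.9) and 12.7% (11.6 to 13.8) of Isotype+JAKi barcodes. The groups did not overlap, and the means differed by −37.3 percentage points (49.2% and 11.8%, pooled SD 7.25, n = 2 reactions each). The intervals cover counting error only. Isotype lies near the 1:1 mixture that was loaded and Isotype+JAKi far under it, but where each lies depends on the depth of the barcodes kept. Among barcodes with fewer than 2500 genes, the study's limit, the shares were 89.8% and 90.8% for Isotype and 40.4% and 70.3% for Isotype+JAKi, so that Isotype was far above the mixture and the gap was −34.9 points. Whether tumors, the sort, the mixing or the hashtagging set this gap cannot be told apart.

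Macrophage-like cells were the main CD45+ class in both groups. They were 91.2% and 96.5% of CD45+ barcodes for Isotype and 87.4% and 90.7% for Isotype+JAKi, ranges that did not overlap but lay close. T cell–like barcodes were few: 20 and 4 for Isotype and 16 and 17 for Isotype+JAKi, or 1.06% and 0.453% of CD45+ barcodes against 2.65% and 3.67%. This rise (log2 1.90, adjusted p = 0.274 by edgeR over 8 classes) did not pass the test, and its direction turned with a hashtag lead of at least 2 (log2 −2.54, adjusted p = 0.0887), which left 1 T cell–like barcode in either sum of reaction 2. Dendritic cell–like barcodes numbered 1 to 13 and granulocyte-like barcodes at most 6 in any sum. Of the 8 classes, each tested within its CD45 compartment, 0 passed edgeR's test, and 1 (T cell–like) had an unadjusted p under 0.05. Without the Isotype sum of reaction 1, the T cell–like and granulocyte-like shares each had an adjusted p of 0.0254, but that fit sets 4 T cell–like and 0 granulocyte-like barcodes in a lone Isotype sum, assumed to vary like the other group, against the Isotype+JAKi sums.

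**Figure D1:**
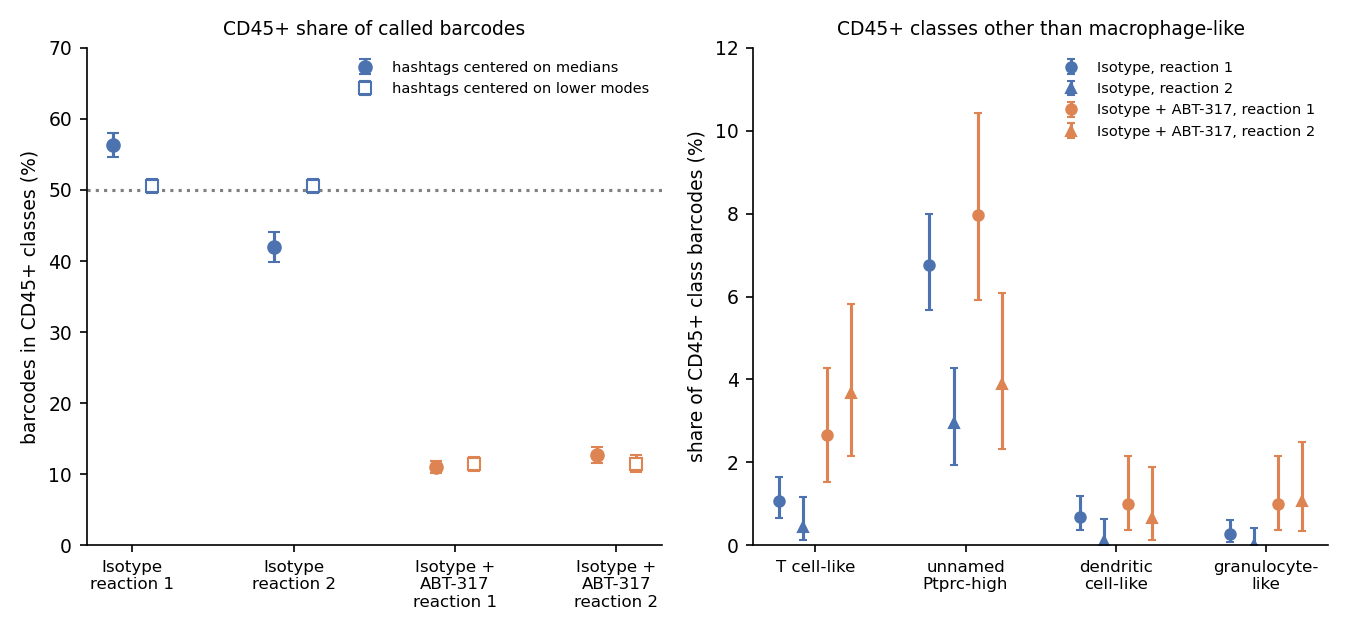
Left, percent of called barcodes in CD45+ classes for each treatment and reaction, with hashtags centered on medians (filled) or lower modes (open), and the 50% of a 1:1 mixture as a dotted line. Right, percent of CD45+ barcodes in the other CD45+ classes. Points are single reactions and bars are exact 95% binomial intervals. Isotype lies between 42.0% and 56.4% and Isotype+JAKi between 11.03% and 12.7%, and T cell–like shares are higher with ABT-317 in both reactions.

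In the RNA of all barcodes, 1963 of 16111 genes passed edgeR's test at an adjusted p of 0.05 (12.2%): 226 were higher with ABT-317 (1.40%) and 1737 lower (10.8%). With the shared reaction fitted as a block, 5837 passed (36.2%), of which 3292 were lower (20.4%). Levels here and below are CPM scaled by the TMM method and differences are log2 fold changes, Isotype+JAKi minus Isotype. Apoe, a lipid carrier abundant in tumor macrophages, was 3074 and 2411 CPM for Isotype and 359 and 493 CPM for Isotype+JAKi. The groups lay far apart (log2 −2.69, SE 0.192, adjusted p = 2.77e-04). Ccl3, a macrophage chemokine, stood at 319 and 254 CPM against 40.2 and 55.8 CPM (−2.58). H2-Ab1, an MHC class II chain, stood at 541 and 438 CPM against 75.6 and 103 CPM (−2.46). In neither gene did the groups overlap.

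These falls moved with the share of macrophages. Of the 1737 lower genes, 1243 (71.6%) were at least 5 times higher in macrophage-like barcodes than in a reference set. That set was the unnamed clusters with Ptprc under 5 CPM, defined below, with a low floor value for genes not tested there. The same held for 8.54% of all tested genes and 0 of the 226 higher genes. The 12 macrophage markers summed to 7441 and 6203 CPM for Isotype and 1138 and 1520 CPM for Isotype+JAKi. Over all barcodes, fewer cells of a type and less RNA per cell cannot be told apart. By list, 11 of 11 MHC class II genes fell (median log2 −2.27), as did 18 of 24 inflammatory cytokine and chemokine genes (median −1.78, with 1 higher) and 16 of 30 interferon-γ–induced genes (median −0.59, none higher). Of genes tied to STAT3 and gp130 cytokines 11 of 22 fell (median −0.64), as did 9 of 17 tied to STAT5 (−0.80) and 7 of 11 tied to STAT6 (−1.68). Of all genes 10.8% fell, and the median over all genes was −0.00. Genes that rose were fewer and changed less, among them Tnnt2, a troponin (0.94), Cox6a2, a cytochrome oxidase subunit (0.89), Tfrc (0.87), and Ankrd1 (0.85).

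Of the members of the JAK pathway over all barcodes, 3 of 4 kinases, 3 of 7 STAT factors and 4 of 13 feedback inhibitors fell, and none rose, where 10.8% of all genes fell. Of the kinases, Jak1, the target of ABT-317, was at 84.0 and 81.9 CPM for Isotype and 72.5 and 72.9 CPM for Isotype+JAKi, without overlap but with a small difference (−0.19, adjusted p = 0.406, or 0.0287 with the reactions paired). Jak2 (−0.91), Jak3 (−0.81), and Tyk2 (−0.70) fell. Of the STAT factors, Stat3 fell narrowly (−0.50, adjusted p = 0.0489). The feedback gene Socs3 went from 113 and 103 CPM to 35.0 and 44.7 CPM (−1.44, adjusted p = 5.92e-04), and Cish, a STAT5 target, fell from 1.80 and 1.59 CPM to 0.565 and 0.510 CPM (−1.65). Socs1 was at 39.7 and 54.3 CPM against 44.8 and 49.0 CPM, with overlap (−0.00). Of the interferon-γ targets, Cxcl9 (−2.04), Cd274 (−1.78), and Cxcl10 (−0.66) fell, while Irf1, a transcription factor, was at −0.39 (adjusted p = 0.0929, or 0.00222 with pairing). Without the Isotype sum of reaction 1, the adjusted p was 0.156 for Jak2, 0.111 for Tyk2, and 0.140 for Cxcl10. Without the Isotype+JAKi sum of reaction 1 it was 0.114 for Cxcl10, and without that of reaction 2 it was 0.0872 for Tyk2. Stat3 did not pass without any 1 of the 4 sums (adjusted p = 0.108 to 0.369). With hashtags centered on lower modes, neither Stat3 (adjusted p = 0.143) nor Cxcl10 (0.0588) passed. Ifng itself was barely counted, at 0.0557 to 0.709 CPM, with overlapping groups.

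Macrophage-like barcodes were then compared alone. They numbered 1713 and 852 for Isotype and 527 and 420 for Isotype+JAKi, at similar median UMIs (3858 and 5295 against 3486 and 4966). Their makeup differed as well: cluster 0 held 44.5% and 32.0% of them for Isotype and 52.6% and 43.6% for Isotype+JAKi, and cluster 1 held 48.2% and 57.9% against 34.9% and 48.3%. Of 11053 genes, 0 passed edgeR's test (0%), 432 had an unadjusted p under 0.05, and DESeq2 also called 0. With the shared reaction as a replicate block 279 passed (2.52%): 137 higher (1.24%) and 142 lower (1.28%). That fit has 1 residual degree of freedom per gene, so its p values lean on the spread shared across genes. Leaving out the Isotype+JAKi sum of reaction 2 gave 161 calls without the block, and leaving out any other sum gave 2 to 9.

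Among JAK pathway genes in macrophage-like barcodes, Socs3 was at 333 and 389 CPM for Isotype and 237 and 289 CPM for Isotype+JAKi. Both Isotype+JAKi values lay under both Isotype values (−0.46, adjusted p = 1.00 unpaired and 2.34e-04 with the reaction as a block). Cxcl9 was at 234 and 229 CPM against 169 and 174 CPM (−0.43, block adjusted p = 6.67e-04). Cd274 was at 230 and 208 CPM against 179 and 164 CPM (−0.35, block adjusted p = 0.0108). Neither gene's groups overlapped. These were the 2 of 27 measured interferon-γ–induced genes that passed with the block. The list's median was −0.07, with 9 members above 0, and it was −0.25 within cluster 0 and 0.21 within cluster 1. The effect on Cxcl9 differed from that under CPI, as it did for 35 of 10879 genes in these barcodes (0.322%). Other members differed less than their spread: Stat3 was at 107 and 103 CPM against 116 and 102 CPM (0.06), and Irf1 differed by −0.01, Tyk2 by 0.05, Socs1 by −0.01, and Jak3 by −0.30, and Cxcl10, at 839 and 933 against 872 and 1122 CPM, by 0.17. Jak1 (−0.07) and Jak2 (−0.23) were lower without overlap and did not pass with the block (adjusted p = 0.886 and 0.446). With the block, 3 of 20 STAT3 and gp130 genes fell, none of 13 STAT5 genes passed, and of 8 STAT6 genes 2 rose and 1 fell, where 1.28% of all genes fell and 1.24% rose.

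Because Socs3 was lower in both macrophage-like clusters large enough to compare alone, its promoter is shown. RefSeq places it in GRCm38.p6 at chr11:117969367-117969616 on the minus strand, the 250 bases before the start of the gene. The capitals mark TTCTTAGAA, a match to TTCNNNGAA, the palindrome that STAT factors are known to recognize, which begins at −154.
Socs3: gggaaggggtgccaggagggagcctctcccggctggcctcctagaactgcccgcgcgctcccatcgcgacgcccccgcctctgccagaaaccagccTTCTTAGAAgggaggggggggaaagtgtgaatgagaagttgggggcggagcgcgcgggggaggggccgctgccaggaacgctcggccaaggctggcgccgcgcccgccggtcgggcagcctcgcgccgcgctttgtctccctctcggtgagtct
The pattern TTCNNNGAA, whose reverse complement is the same pattern, is in 2306 of 32851 promoters of that length (7.02%). Of the 14 JAK pathway genes always reported, 13 had a promoter entry and 3 held the motif: Socs3, Irf1, and Ifng. A match is a description of the letters and not a shown binding site.

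MHC class II genes were mostly lower in macrophage-like barcodes, though none passed unpaired. Of 11 measured members 10 were under 0 (median −0.44, against 0.00 for all genes), and 4 fell with the block, where 1.28% of all genes fell. H2-Ab1 was at 1886 and 2336 CPM for Isotype and 1244 and 1851 CPM for Isotype+JAKi (−0.45). H2-Eb1 was at 2011 and 2504 CPM against 1329 and 1898 CPM (−0.49). In both genes the higher Isotype+JAKi value lay just under the lower Isotype value. For H2-Ab1 the difference was −0.19 without the Isotype+JAKi sum of reaction 1 and −0.77 without that of reaction 2. Ciita, the master regulator of these genes, was at 15.1 and 13.4 CPM against 10.2 and 16.2 CPM, with overlap.

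Immediate early genes, which respond within minutes to stimulation and to tissue handling, were often lower. With the block 9 of 20 immediate early and heat shock genes fell and 3 rose (median −0.31). Of all genes 1.28% fell and 1.24% rose with the block. Fos was at 1208 and 1559 CPM against 782 and 1128 CPM (−0.53). Dusp1, a phosphatase that shuts off MAP kinases, was at 1038 and 1389 CPM against 647 and 824 CPM (−0.72), and Dusp2 differed by −0.73. The 3 risers were the heat shock genes Hspa1a, Hspa1b, and Hspb1. Among cytokines, 5 fell and 1 rose with the block, and Cxcl1, which attracts neutrophils, was at 349 and 430 CPM against 199 and 297 CPM (−0.65). Mitochondrial transcripts were above 0 for 9 of 9 members (median 0.28), and 2 passed with the block. This share moves with RNA quality and its part in the other results was not tested.

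By the rule for named genes, which without calls takes the largest differences among genes of at least 50 CPM whose groups do not overlap (27.7% of such genes), the lowest were Dusp2, Dusp1, Cxcl1, Apoe (11380 and 13410 against 6889 and 9674 CPM, −0.58), and Pltp, a phospholipid transfer protein (−0.58). Among the highest were Stard13 (0.72), the heat shock gene Hsph1 (0.62), Prune2 (0.60), and Hgsnat, a lysosomal acetyltransferase (0.57). Many of these sizes rest on 1 sum. Without the Isotype+JAKi sum of reaction 1 or 2, the difference was −0.39 or −0.97 for Cxcl1, −0.36 or −0.85 for Apoe, 0.34 or 0.85 for Hsph1, and 0.21 or 0.90 for Prune2. Without the Isotype sum of reaction 1 or 2 it was −0.80 or −0.32 for Pltp.

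Type I interferon–stimulated genes were mostly higher in macrophage-like barcodes. Of 33 measured members 28 were above 0 (median 0.20), and with the block 8 rose and 1, Ifih1, fell. With the block 1.24% of all genes rose and 1.28% fell. Ifit2, an antiviral RNA-binding protein, was at 66.3 and 76.7 CPM for Isotype and 98.9 and 102 CPM for Isotype+JAKi (0.49, block adjusted p = 7.18e-04). Rsad2, which encodes viperin, was at 241 and 240 CPM against 293 and 335 CPM (0.39). Both were higher with no overlap.

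Calls without any block came from 1 macrophage-like cluster. In cluster 1, led by Ccl3, Arg1, and Cd14, Ifit2 was at 60.2 and 75.4 CPM against 143 and 139 CPM (1.06, SE 0.156, adjusted p = 0.0133). Cmpk2, a mitochondrial nucleotide kinase induced by interferons, was at 17.6 and 14.8 CPM against 39.0 and 48.3 CPM (1.43, adjusted p = 0.0248). With the predicted gene Gm43305, these were the 3 of 9323 genes called in cluster 1 (0.0322%). In cluster 0, led by Ccl12 and Aif1, Ifit2 was at 86.6 and 88.1 CPM against 116 and 69.0 CPM, with overlap, and 0 of 8045 genes were called (0%, with 337 at an unadjusted p under 0.05). The difference between these clusters was not tested. The median of the type I list was 0.02 and 0.44 in the clusters, and that of the MHC class II list −0.36 and −0.30. The type I median was also above 0 within 5 of 6 Ptprc-low clusters, and in cluster 3 it was 0.37, with 30 of 32 members above 0.

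Socs3 and H2-Ab1 were lower without overlap in both clusters compared (0 and 1). Socs3 was at 282 and 274 CPM against 198 and 215 CPM in cluster 0 (−0.43), and at 429 and 472 CPM against 358 and 365 CPM in cluster 1 (−0.32). H2-Ab1 differed by −0.42 and −0.37. Of genes tested in both clusters, 3.88% were lower and 3.46% higher without overlap in both. Cxcl9 differed by −0.69 in cluster 0 and by −0.00 in cluster 1.

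**Figure D2:**
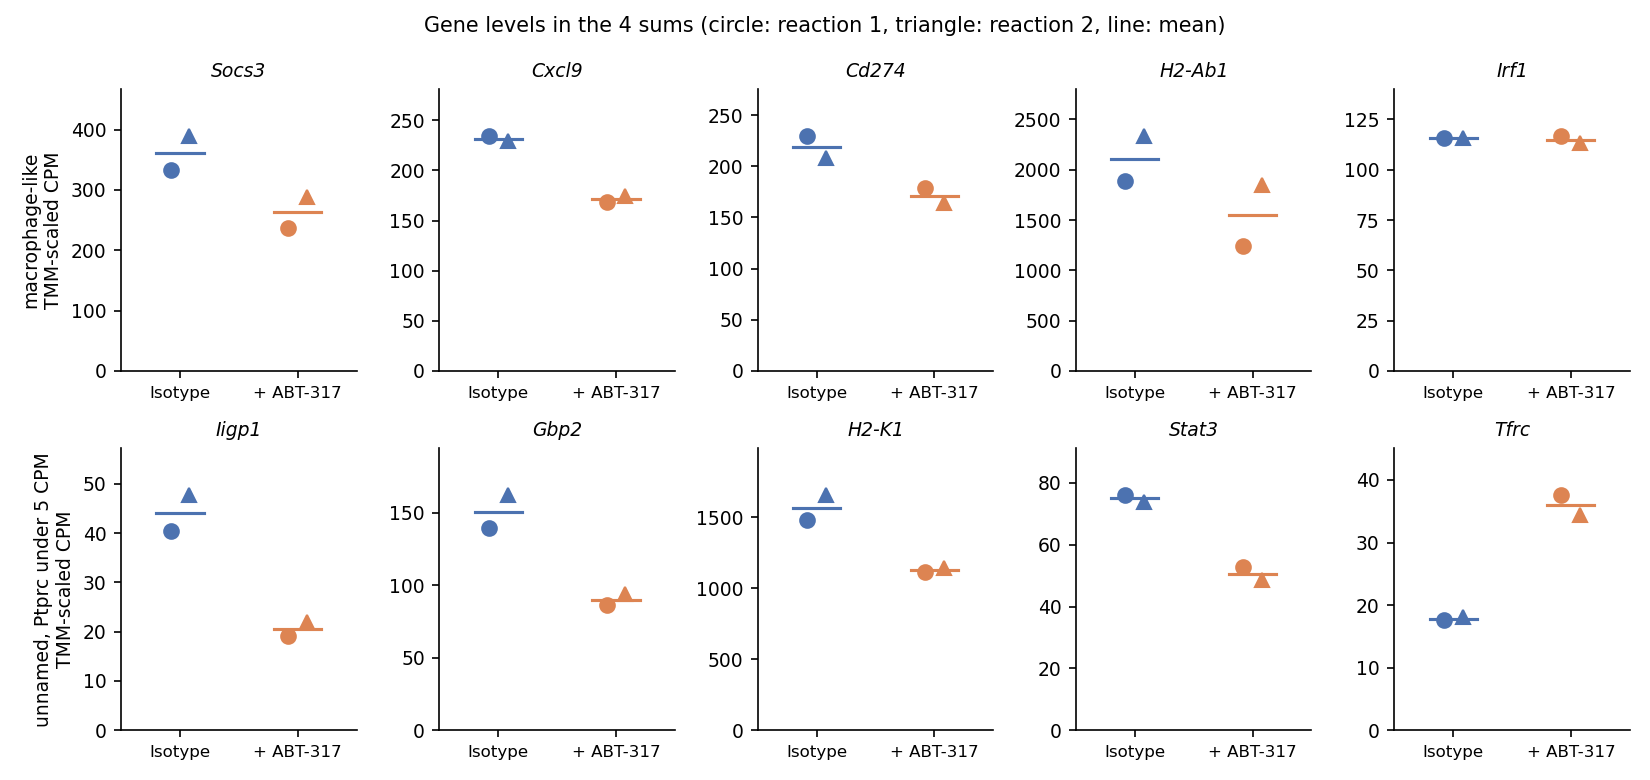
CPM of 10 gene and class pairs in the 4 sums (circles reaction 1, triangles reaction 2, lines means, each axis starting at 0). In macrophage-like barcodes (top), Socs3, Cxcl9, Cd274, and H2-Ab1 are lower with ABT-317 without overlap and Irf1 is level. In unnamed clusters with Ptprc under 5 CPM (bottom), Iigp1, Gbp2, H2-K1, and Stat3 are lower and Tfrc higher, pooled over clusters, while Stat3 is level within each cluster (−0.10 to 0.07).

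Unnamed Ptprc-low barcodes numbered 1419 and 1206 for Isotype and 4776 and 3133 for Isotype+JAKi. Of 15451 genes, 266 passed (1.72%), 20 higher (0.129%) and 246 lower (1.59%), and with the block 4433 passed (28.7%). Without barcodes that Scrublet calls doublets, 0 passed by edgeR, and 1897 had an unadjusted p under 0.05. Macrophage RNA moved with these calls. By the same reference set, 196 of the 246 lower genes (79.7%) were at least 5 times higher in macrophage-like barcodes. For all tested genes it was 8.44%. The 12 macrophage markers summed to 1628 and 1493 CPM for Isotype and 633 and 812 CPM for Isotype+JAKi. With hashtags centered on lower modes 97 passed, and Tfrc (adjusted p = 0.161), Gadd45a (0.188), Cxcl9 (0.142), and Gbp4 (0.691) were not among them. Cluster 4, led by Alox5ap, Ms4a4a, and Cd68, belongs to this class. Without 1 of the sums 406 to 755 genes passed, the fewest without the Isotype sum of reaction 1 and the most without the Isotype+JAKi sum of reaction 2.

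The comparison was therefore repeated, a choice made after seeing the data, in the unnamed clusters with Ptprc under 5 CPM (clusters 2, 3, 5, 7, 12, and 20; 840 and 905 Isotype and 3258 and 2536 Isotype+JAKi barcodes). There the macrophage markers were at 295 and 256 CPM for Isotype and 259 and 226 CPM for Isotype+JAKi. Of 14593 genes, 674 passed (4.62%), 290 higher (1.99%) and 384 lower (2.63%), and with the block 5839 passed (40.0%), of which 3103 were higher (21.3%). The lower genes were at least 5 times higher in macrophage-like barcodes in 6.77% of cases, against 6.83% of all tested genes. Without doublets 994 genes passed, and the count was 299 and 165 without the Isotype sum of reaction 1 or 2, and 1262 and 1085 without that of Isotype+JAKi. With hashtags centered on lower modes, 0 of 15154 passed by edgeR, 1755 had an unadjusted p under 0.05, and 5846 passed once the reactions were paired.

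Interferon-γ–induced genes were mostly lower over these clusters pooled. Of 28 measured members 26 were under 0 (median −0.52, against −0.01 for all genes), 12 fell, and none rose, where 2.63% of all genes fell. Within single clusters the list median ran from −0.42 in cluster 2 to 0.03 in cluster 3, where 14 of 25 members were above 0. Iigp1, an interferon-induced GTPase, was at 40.5 and 47.7 CPM for Isotype and 19.02 and 21.9 CPM for Isotype+JAKi (−1.11, SE 0.121, adjusted p = 0.00866). Cxcl9 was at 16.5 and 15.0 CPM against 6.85 and 6.53 CPM (−1.23, adjusted p = 0.00821). The groups were well apart in both genes. Within single clusters Cxcl9 differed less, by −0.85 to 0.44, and was lower in 4 of 5, in 2 of them without overlap. Its Isotype level was 41.5 and 36.0 CPM in cluster 3 and 1.69 and 1.40 CPM in cluster 2, and the shares of these clusters moved between the groups, as given below. Gbp4, a guanylate-binding protein, fell by 0.87 on the log2 scale over the pooled clusters, and Irf1, at 105 and 118 against 80.3 and 81.2 CPM, by 0.47 (adjusted p = 0.0362). Both Gbp4 and Iigp1 were likewise higher in cluster 3 (46.5 and 45.8 CPM, and 82.3 and 99.6 CPM, for Isotype) than in cluster 2 (9.83 and 8.86 CPM, and 14.04 and 12.1 CPM). Within cluster 3 they differed by −0.28 and −0.19, and over the 5 clusters by −1.07 to −0.08 and −2.24 to −0.19. With hashtags centered on lower modes, the pooled differences were −0.46 for Iigp1, −0.38 for Cxcl9, −0.32 for Gbp4, and −0.23 for Irf1.

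Stat3, the STAT factor of gp130 cytokines, was also lower over the pooled clusters, at 76.0 and 73.9 CPM for Isotype and 52.8 and 48.5 CPM for Isotype+JAKi, with no overlap (−0.56, adjusted p = 0.0220). Within single clusters it was level, at −0.10 to 0.07 with the groups overlapping in 5 of 5, and its pooled difference moved with the shares of cluster 3 (139 and 143 CPM for Isotype) and cluster 2 (23.3 and 18.9 CPM). With hashtags centered on lower modes the pooled difference was −0.32. Without the Isotype sum of reaction 1 or 2, the adjusted p was 0.0877 and 0.101 for Stat3 and 0.0823 and 0.288 for Irf1. Jak1, Jak2, Jak3, and Tyk2 were between −0.27 and −0.13 and did not pass, nor did Socs3 (29.3 and 39.4 against 25.2 and 30.4 CPM, with overlap), Socs1 (−0.19), Cd274 (10.7 and 9.02 against 9.01 and 8.22 CPM), or Cxcl10 (−0.05).

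MHC class I presentation genes were under 0 for 17 of 17 measured members (median −0.42), and 7 fell, where 2.63% of all genes fell. H2-K1, a classical class I heavy chain, was at 1482 and 1656 CPM for Isotype and 1116 and 1140 CPM for Isotype+JAKi (−0.48, adjusted p = 0.0333). Psmb9, an interferon-induced proteasome subunit, was at 174 and 185 CPM against 121 and 133 CPM (−0.50). Neither gene's groups overlapped. For Isotype, H2-K1 stood at 2282 and 2573 CPM in cluster 3 and 841 and 881 CPM in cluster 2, whose shares moved between the groups. Psmb9 stood at 235 and 245 CPM and 129 and 133 CPM. Within single Ptprc-low clusters the list median was smaller, −0.31 to −0.07. The adjusted p of H2-K1 was 0.0782 and 0.268 without the Isotype sum of reaction 1 or 2, and its difference was −0.12 with hashtags centered on lower modes. Reads of H2-K1 and other class I genes may be split among near-identical copies, so values of single class I genes are uncertain. Of type I interferon–stimulated genes 2 of 32 fell and none rose (median −0.20), although within single clusters the median was above 0 in 4 of the 5 compared alone (0.10 to 0.37) and −0.22 in cluster 2. Cluster 20, led by interferon-stimulated genes such as Ifit3 and Isg15, was too small to compare alone. It held 1.67% and 1.66% of the Isotype barcodes and 3.74% and 3.90% of the Isotype+JAKi barcodes.

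Among the 10 largest rises in these clusters was Tfrc, which takes up iron-loaded transferrin. Tfrc was at 17.6 and 18.1 CPM for Isotype and 37.6 and 34.4 CPM for Isotype+JAKi (1.01, SE 0.101, adjusted p = 0.00821). Gadd45a, a stress gene that responds to DNA damage, was at 17.4 and 15.9 CPM against 32.8 and 30.3 CPM (0.93, adjusted p = 0.00896). The Isotype+JAKi values were well above the Isotype values in both. Within the 5 single clusters the differences were smaller, 0.52 to 0.90 for Tfrc and 0.30 to 0.74 for Gadd45a, whose Isotype level was 8.33 and 7.51 CPM in cluster 3 and 38.8 and 28.4 CPM in cluster 5. Cluster 5 held 10.6% and 8.84% of Isotype and 21.7% and 17.5% of Isotype+JAKi barcodes. With hashtags centered on lower modes the pooled differences were 0.60 for Tfrc and 0.53 for Gadd45a. Cox6a2 (0.86), Tnnt2 (0.81), and Ankrd1 (0.81) also rose. With lower-mode hashtags their differences were 0.47, 0.61, and 0.36. Without the Isotype sum of reaction 2, Tnnt2 and Ankrd1 each differed by 0.69.

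Matrix genes moved with the makeup of these clusters. Of 24 collagen and matrix genes 14 fell (median −0.53), among them Col6a2 (−1.03, or −0.59 with lower-mode hashtags) and Col1a1, the main chain of fibrillar collagen, at 46.0 and 48.8 CPM against 26.1 and 19.6 CPM (−1.06, or −0.42 with lower-mode hashtags). The fibroblast list summed to 3471 and 3962 CPM against 2113 and 2205 CPM. Cluster 3, led by H19 and Cilp, held 41.3% and 45.9% of the Isotype barcodes and 19.7% and 20.7% of the Isotype+JAKi barcodes. Cluster 2, led by cell division genes such as Ube2c and Cdk1, held 118 of 840 and 113 of 905 Isotype barcodes against 29.5% and 32.9% of Isotype+JAKi barcodes. Genes that lead these clusters moved in the pooled values. H19 (−1.04, or −0.61 with lower-mode hashtags) and Cilp (−1.47, or −0.72) fell. Cell cycle genes rose (24 of 24 above 0, 3 called, where 1.99% of all genes rose). Within single clusters Col1a1 was lower in 2 and higher in 4 of 6 (−0.35 to 0.76), and the cell cycle median was under 0 in 4 and above 0 in 2. The collagen and matrix median was under 0 in 6 of 6 (−0.22 to −0.07). Col6a2 was lower without overlap in 5 and higher without overlap in 1 of 6 (−0.43 to 0.23). Cilp was lower without overlap in 5 of 5 (−1.18 to −0.23), and H19 was lower in 4 and higher in 2 of 6. What part of the pooled falls goes with the makeup was not tested.

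Each cluster with at least 50 barcodes in every sum was then compared alone, which left 6 Ptprc-low clusters (4 included). Tfrc was higher without overlap in 6 of 6 (0.51 to 0.90), as were 0.514% of the genes tested in all of them. H2-K1 was lower without overlap in 6 of 6 (−0.31 to −0.12), as were 0.310% of genes. Irf1, Iigp1, and Psmb9 were under 0 in 6 of 6, as were 6.14% of genes, with no overlap in 5, 4, and 5 clusters. Gadd45a was above 0 in 6 of 6 (0.30 to 0.74), as were 7.01% of genes, with no overlap in 5. The median of the MHC class I list was under 0 in 6 of 6 clusters (−0.31 to −0.07) and that of the interferon-γ–induced list in 5 of 6 (−0.42 to 0.03), beside medians of all genes of −0.01 to 0.00.

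Cluster 2 gave 22 calls of 12214 genes (0.180%), 18 lower and 4 higher. Iigp1 there was at 14.04 and 12.1 CPM for Isotype and 4.02 and 4.01 CPM for Isotype+JAKi (−1.69, adjusted p = 0.00157). Gbp2 was at 61.5 and 63.7 CPM against 26.4 and 32.6 CPM (−1.08, adjusted p = 0.00157). Tfrc was at 19.1 and 24.5 CPM against 43.2 and 39.0 CPM (0.90, adjusted p = 0.0212). All these groups were clearly separate. Gbp3 (−0.97), Igtp (−0.95), Psmb9 (−0.66), and the interferon-stimulated Rsad2 (−0.83) also fell, as did the chemokine gene Ccl7 (−0.93) and the coagulation gene F3 (−0.88).

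Other Ptprc-low clusters gave few calls. Cluster 3 gave 4 of 12081 genes (0.0331%), all higher: Cxcl1, at 193 and 227 against 341 and 375 CPM (0.77), the transcription factor gene Cebpd (0.94), the matrix gene Tnc (1.75), and Gm16685 (1.00). Cluster 12 gave 1 of 10565 (0.00947%), Mt2, a metal-binding metallothionein, at 218 and 213 against 419 and 376 CPM (0.88). Clusters 4, 5, and 7 gave 0 by edgeR, with 1032, 504, and 408 genes at an unadjusted p under 0.05. Genes called in 1 cluster often moved in others too. Mt2 was above 0 in 6 of 6 Ptprc-low clusters (0.22 to 0.88), without overlap in 4. Cebpd (−0.11 to 0.94) and Cxcl1 (−0.50 to 0.77) were each above 0 in 5 of 6. Ccl7, which fell in cluster 2, was higher without overlap in cluster 3 (0.32). Whether clusters differ in their response was not tested.

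**Figure D3:**
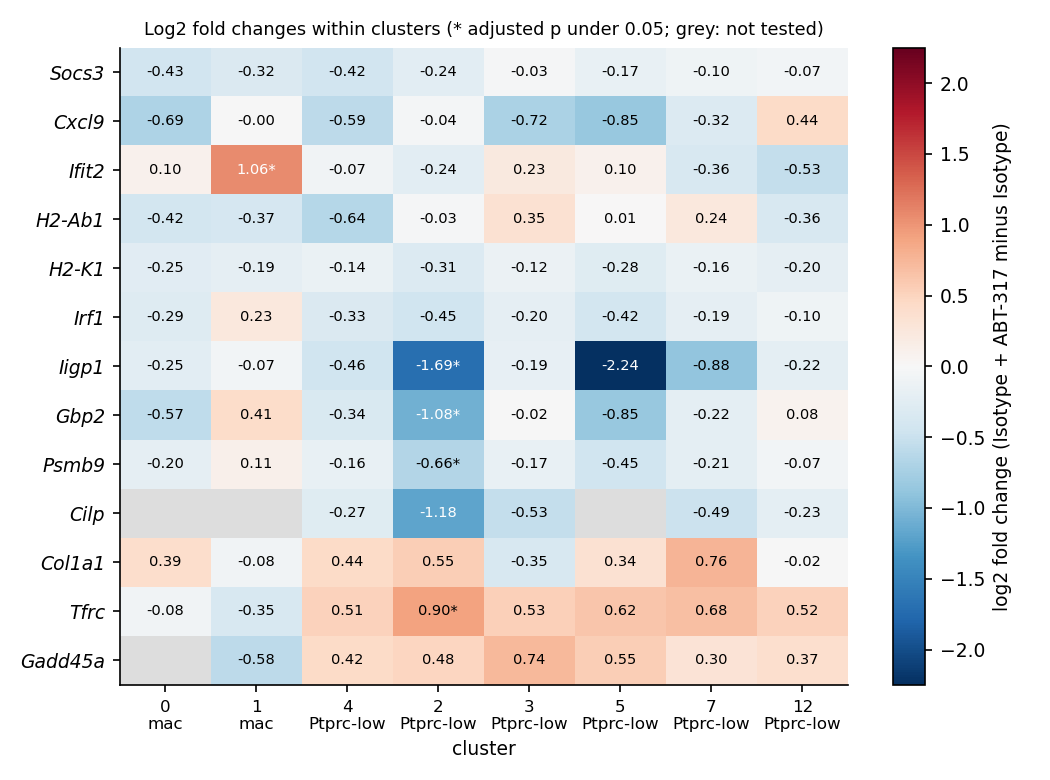
Log2 fold change (Isotype+JAKi minus Isotype) of 13 genes within each of the 8 clusters tested, macrophage-like (0 and 1) and Ptprc-low (4, 2, 3, 5, 7, and 12). Asterisks mark an adjusted p under 0.05 and gray means too few counts to test. Tfrc is above 0 and H2-K1, Irf1, Iigp1, and Psmb9 are under 0 in every Ptprc-low cluster, while Col1a1 varies in sign.

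**Figure D4:**
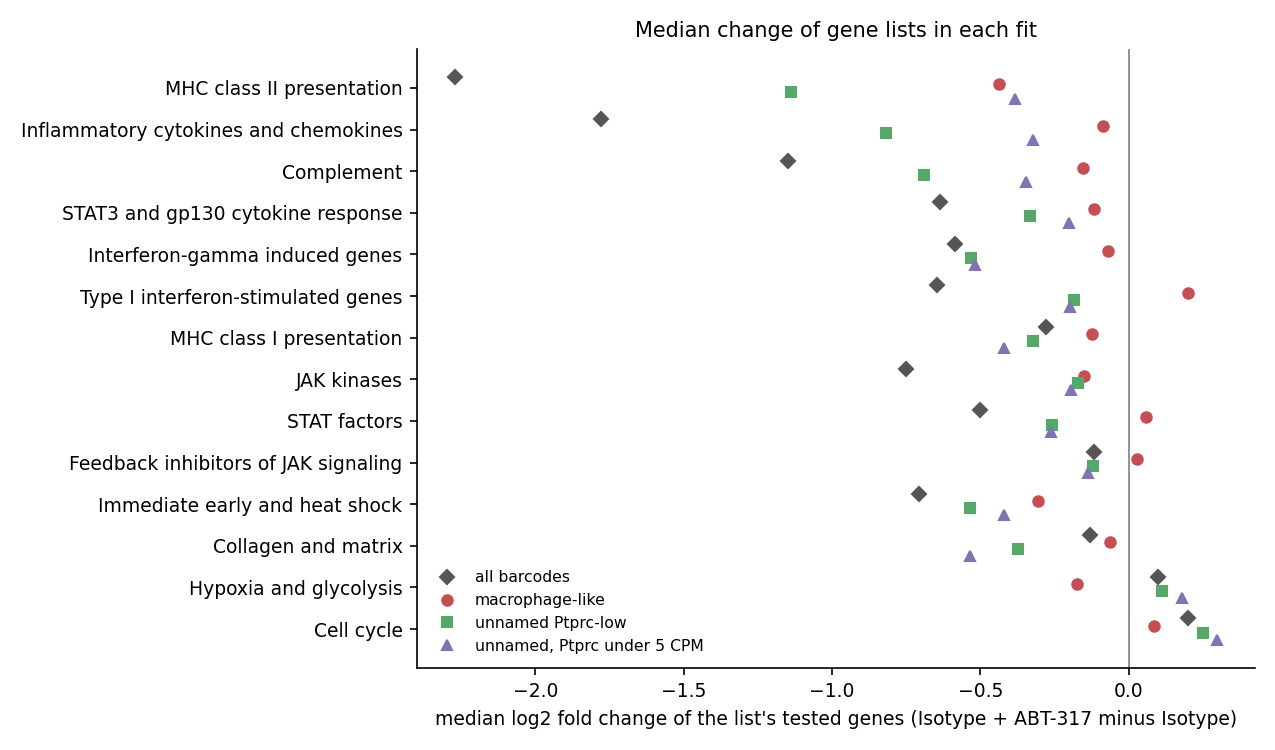
Median log2 fold change of each gene list over its tested members, for all barcodes, macrophage-like barcodes, unnamed Ptprc-low barcodes, and unnamed clusters with Ptprc under 5 CPM. MHC class II lies at −2.27 over all barcodes and −0.44 in macrophage-like barcodes, and type I interferon–stimulated genes at 0.20 in macrophage-like barcodes and under 0 in the other fits, which pool clusters (above 0 within 5 of 6 Ptprc-low clusters).

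Surface proteins were counted in the same barcodes with 122 antibodies, and 25 passed over all barcodes (20.5%), 6 higher and 19 lower. CD71, the protein of Tfrc, was at 5757 and 6715 CPM of antibody counts for Isotype and 11910 and 12826 CPM for Isotype+JAKi (0.99, SE 0.0967, adjusted p = 0.0120). CD98, an amino acid transporter chain encoded by Slc3a2, was at 18454 and 22064 CPM against 30169 and 33538 CPM (0.65, adjusted p = 0.0438). Both proteins were higher without overlap and moved with the CD45+ share: in Isotype barcodes CD71 was at 3057 and 3000 CPM in macrophage-like and 10119 and 10866 CPM in Ptprc-low barcodes, and CD98 at 13761 and 14939 CPM and 26513 and 30247 CPM. Within Ptprc-low barcodes the differences were 0.40 and 0.29. Among the lower proteins were CD11b, an integrin of myeloid cells, at 17728 and 18290 CPM against 6658 and 8269 CPM (−1.27), and the MHC class II protein I-A/I-E, at 9329 and 9804 CPM against 3793 and 4345 CPM (−1.23). CD45.2 was also lower (−0.42), and these 3 moved with the CD45+ share. The other lower proteins differed by up to −0.87 (CD48) and include CD73 (−0.46), CD44 (−0.34) and Ly108 (−0.22). Without either Isotype sum, at most 1 protein passed. The 9 isotype control antibodies, a measure of background, summed to 19455 and 18867 CPM against 19168 and 18572 CPM.

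CD274 protein differed little while its RNA was lower. Over all barcodes CD274 was at 2479 and 2552 CPM for Isotype and 2419 and 2472 CPM for Isotype+JAKi, so that the groups nearly touched (−0.04, adjusted p = 0.307), while Cd274 RNA was at −1.78. In macrophage-like barcodes it was at 2512 and 2598 CPM against 2487 and 2433 CPM (−0.05), and Cd274 RNA was at −0.35. A median isotype control antibody was at 2056 to 2177 CPM over all barcodes, close to the CD274 antibody itself.

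Within classes, 0 of 122 proteins passed without pairing (0%) in macrophage-like or in Ptprc-low barcodes by edgeR (22 and 20 at an unadjusted p under 0.05), and 31 (25.4%) and 2 (1.64%) passed with the reaction as a block. I-A/I-E in macrophage-like barcodes was at 11553 and 13996 CPM against 8045 and 9408 CPM (−0.55, adjusted p = 0.197, or 4.33e-04 with the block), and H2-Ab1 RNA was at −0.45. Other proteins fell in the same barcodes: of the 31 that passed with the block 20 were lower, among them CD11b (−0.52), CD54 (−0.42), CD44 (−0.37), and CD45 (−0.35), whose RNAs were at −0.21 (Itgam), −0.06 (Icam1), −0.13 (Cd44), and −0.22 (Ptprc). A median isotype control antibody was at 2115 to 2328 CPM there. CD54, at 2214 and 2608 against 1714 and 1881 CPM, lay around that background. CD45, at 3163 and 3526 against 2497 and 2743 CPM, lay a little above it. The 2 proteins in Ptprc-low barcodes were CD71 and CD98. CD71 there was at 10119 and 10866 CPM against 13140 and 14629 CPM (0.40, adjusted p = 0.155, or 0.0352 with the block), and Tfrc RNA was at 0.83. Myeloid proteins were lower beside it without passing, I-A/I-E at −0.77 and CD11b at −0.75. CD71 is itself lower in macrophage-like than in Ptprc-low barcodes, and the protein comparison was not repeated without doublets. In macrophage-like barcodes CD71 differed by 0.19 (adjusted p = 0.119, or 0.00305 with the block), with Tfrc RNA at −0.05. Both classes showed the CD71 difference without overlap between groups.

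**Figure D5:**
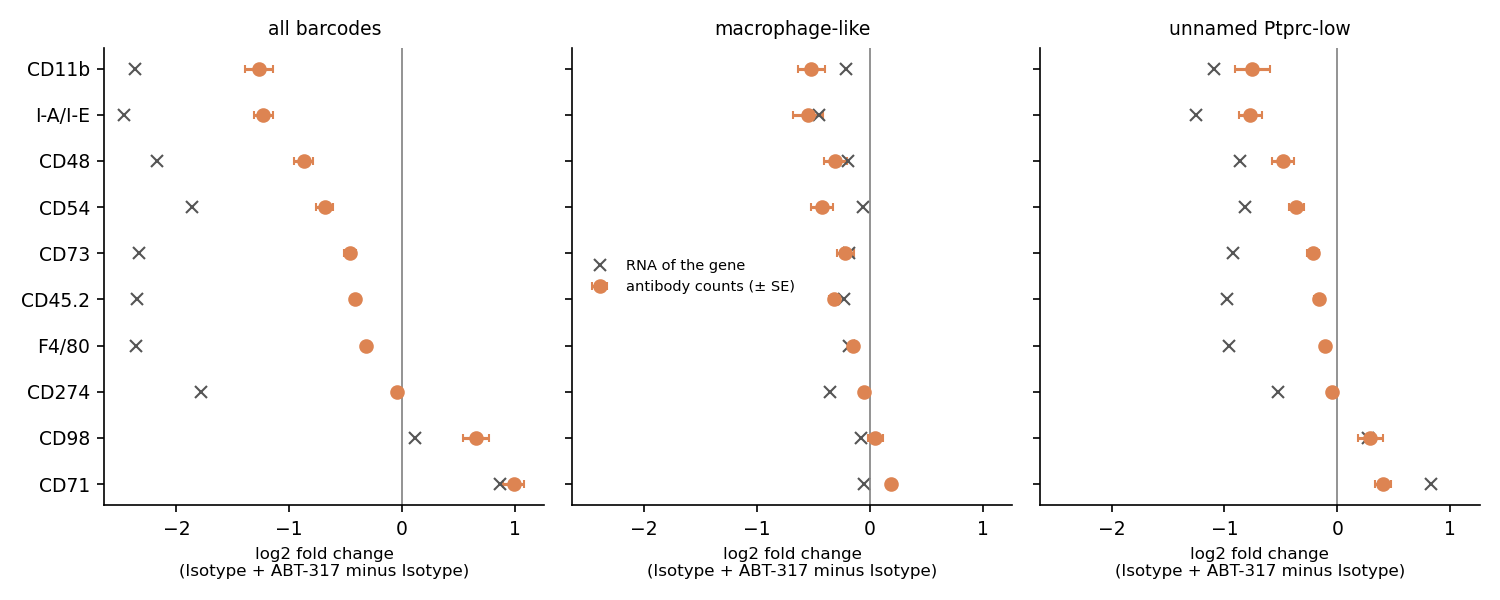
Log2 fold change of surface protein (orange circles, antibody counts with SE) and of the RNA of its gene (gray crosses) for 10 proteins over all barcodes, macrophage-like barcodes, and unnamed Ptprc-low barcodes. CD71 lies right of 0 in all 3 panels, I-A/I-E and CD11b lie left, and CD274 protein lies near 0.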

How the data were processed

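The authors deposited UMI counts per gene and antibody and barcode, written by Cell Ranger (8.0.1 per the file headers, 3.1.0 per the submitters' processing notes), with no normalization. The study's methods name GRCm38 as the genome build, which was not checked against the deposited gene list. The 33696 genes, 122 antibodies and 10 hashtags were read as counts. Counts were summed per treatment and reaction (2 sums each) and tested in edgeR 4.0.16 (R 4.3.3, filterByExpr, TMM, quasi-likelihood, Benjamini-Hochberg, adjusted p of 0.05), with DESeq2 1.42.0 as an alternative. Scripts were tested on simulated data. Clusters came from the Leiden algorithm in leidenalg 0.10.2 (2000 variable genes, 40 components, 15 neighbors). The naming rule was written after clusters had been seen: at least 3 markers at 1.5 times the other clusters. Scrublet, run in scanpy 1.11.5, marked 11.4% and 11.3% of passing barcodes as doublets, which were kept. Same-numbered sums share a droplet reaction, and their deviations correlated (r of 0.511 over all barcodes, 0.377 in macrophage-like, 0.565 in Ptprc-low), so the reaction was also fitted as a block. Named genes were up to 4 called per list, the 10 largest called changes each way at 20 CPM or more, and 14 fixed JAK pathway genes. In the absence of calls they were the 5 largest differences each way at 50 CPM or more. Other genes were chosen after their values were seen. Members and the 27 gene lists were chosen with earlier results of these data known. Some genes these rules pick are not reported here.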

Additional observations from a re-analysis of the deposited data

Results flagged for a closer look

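The effect of ABT-317 under isotype antibody was set against its effect under CPI in 1 model of all 8 sums, and the difference between the effects is given below, isotype minus CPI, on the log2 scale. The values are given without explanation. It passed edgeR's test (adjusted p under 0.05) for 2154 of 17680 genes over all barcodes, 35 of 10879 in macrophage-like barcodes, and 27 of 15873 in unnamed Ptprc-low barcodes. The makeup of the barcodes differed too: T cell–like barcodes numbered 736 of 3545 and 541 of 2359 under CPI, but 13 of 3742 and 18 of 3051 under CPI+JAKi.

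In macrophage-like barcodes, Cxcl9 differed by −1.82 (adjusted p = 0.0101): it was at 235 and 230 CPM for Isotype, 169 and 174 CPM for Isotype+JAKi, 168 and 236 CPM for CPI, and 501 and 546 CPM for CPI+JAKi. In Ptprc-low barcodes, Gadd45a differed by 1.31 (adjusted p = 0.0316) and was higher with ABT-317 under isotype antibody and lower under CPI, at 39.4 and 38.5 CPM against 25.4 and 27.8 CPM. Cilp differed by −1.38 (adjusted p = 0.0457).

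Over all barcodes the difference was −1.13 for Ccl3, −1.22 for Osm, −1.25 for Nlrp3, −1.07 for H2-Ab1, −1.83 for Cxcl9, −1.13 for Cd274, and −0.997 for Cxcl10, and it was 0.873 for Jak1, 2.04 for Cish, and 6.21 for Ifng. Ifng was at 15.1 and 20.9 CPM for CPI and at most 0.706 CPM in every other group. Jak1 was at 142 and 155 CPM for CPI and at 71.2 to 85.4 CPM in the other groups.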

How the results depend on the processing

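The counts of called genes depended on the pairing of reactions. As a replicate block, the reaction moved the count from 1963 to 5837 over all barcodes, from 0 to 279 in macrophage-like barcodes, from 266 to 4433 in Ptprc-low barcodes, and from 674 to 5839 under 5 CPM Ptprc, moved proteins from 25 to 40, and genes whose effect differed from that under CPI from 2154 to 6133. It made no class share pass. For named genes over all barcodes, within classes, and under 5 CPM Ptprc the block ended no call, and it was not fitted within single clusters. Over all barcodes, fewer than 2500 genes per barcode gave 0 by edgeR (2508 at an unadjusted p under 0.05). Without a filter on low counts, 10 genes passed in macrophage-like and 929 in Ptprc-low barcodes. Lower-mode hashtags, added after seeing the data, gave 97 in Ptprc-low barcodes, and with the block 277 in macrophage-like barcodes. DESeq2 gave 442 genes in Ptprc-low barcodes, 860 under 5 CPM Ptprc, and 68 proteins. Leaving out 1 sum gave 1642 to 2228 genes over all barcodes, 2 to 161 in macrophage-like, 406 to 755 in Ptprc-low barcodes, 0 to 22 proteins, and at most 2 class shares. A hashtag lead of at least 2 gave a CD45+ difference of −30.0 points and 1 class share, fibroblast-like, reversed at −3.19 (adjusted p = 0.0370). Cxcl10 under 5 CPM Ptprc reversed to 0.34 with lower-mode hashtags and the block. The causes were not tested. The 4 T cell–like sums compared held 4 to 20 barcodes.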
